A study of Mus musculus with 79 samples.

Results

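The ribosomal protein genes were followed across 79 RNA-seq libraries of differentiating mouse embryonic stem cells. Members were the rows of the deposited gene table whose symbol is Rpl or Rps, a number and at most 1 further letter, a rule that uses names and no measured value. It found 76 genes among 35230, 46 of the large subunit (Rpl) and 30 of the small subunit (Rps), on 19 chromosomes, with 13 on chromosome 7 and 4 on X. Symbols of another form, such as Rplp0, Rpsa and Fau, fall outside the rule and are described as a list of their own. All 76 genes passed the filter on low values and were tested.

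The study used 4 mouse embryonic stem cell (ESC) lines, each at 7 conditions, which gave 28 groups. TET KO carries a triple knockout of Tet1, Tet2 and Tet3, the enzymes that oxidise 5-methylcytosine, and TET WT is its wild-type parent. DNMT KO carries a triple knockout of Dnmt1, Dnmt3a and Dnmt3b, the DNA methyltransferases, and DNMT WT is its own wild-type parent. Cells of all lines were kept in 2i/Lif medium (ESC D0) and taken to epiblast-like cells on day 1 or 2 (EpiLC D1, D2) or to embryoid bodies, aggregates in which early tissues form, on day 2, 4, 6 or 8 (EB D2, D4, D6, D8). There were 3 libraries in 23 groups and 2 in the other 5, which were EB D2 of both knockouts and, for DNMT WT, the stem cells, EpiLC D1 and EB D4. Each genotype is 1 line in these data, so a knockout and any other difference between a pair of lines cannot be told apart. Whether replicates came from separate cultures is not in the labels, and the p-values rest on the spread of these libraries alone. The libraries came from unsorted cells, where fewer cells of a type and less RNA per cell cannot be told apart.

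Each ribosome is built from ribosomal RNA and 1 copy of nearly every ribosomal protein, so these genes are transcribed strongly in growing cells and in roughly matched amounts. Their mRNAs typically begin with an uninterrupted run of pyrimidines, through which mTOR signalling controls their translation. A few have a second gene, a paralogue, used in particular tissues: Rpl10l and Rpl39l are known from male germ cells and Rpl3l from striated muscle. Some ribosomal proteins have further roles, for instance Rpl5 and Rpl11, which bind Mdm2 and so link ribosome assembly to p53.

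Values are RPKM, read counts divided by library size and by the length of all exons of a gene merged. Changes are differences of log2(RPKM + 0.5), which understate the change of weakly expressed genes. A gene passed the test at an adjusted p under 0.05 (limma, Benjamini-Hochberg over the 15267 genes tested), and it was called when the log2 change was also at least 1 in size. Library depth, recovered from the smallest steps of the values, ranged from 7.76 M to 13.9 M reads with a median of 11.2 M. Naive ESC markers summed to between 1162 and 1287 RPKM in all lines at ESC D0 and to 29.8 to 33.6 RPKM in DNMT WT at EB D8. EpiLC markers summed to 284 to 297 RPKM in DNMT WT at EpiLC D2 but to 57.0 to 69.9 RPKM in TET WT. In all 4 lines they were higher at EB D2 than at EpiLC D2, with 506 to 525 RPKM in DNMT WT and 252 to 261 in TET WT. A pair of libraries stood apart in their ribosomal protein content. DNMT KO EB D2 replicate 2 held 7.58% of reads on the 76 genes against 4.80% in the other library of its group, with 75 of the 76 genes higher and a median ratio of 1.60. TET WT EB D4 replicate 2 held 3.39%, and 12.2% of its reads lay on Gm42418, a gene model that overlaps ribosomal RNA.

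The sequences below are RefSeq and GENCODE sequences of the mouse genome GRCm38, and their part in the results was not tested. Rpl39 and its paralogue Rpl39l are measured separately although they encode nearly the same short protein, and the coding sequences are shown with the bases that differ between them in capitals. Of 156 coding bases, 133 were identical and 23 differed (85.3% identity).
Rpl39: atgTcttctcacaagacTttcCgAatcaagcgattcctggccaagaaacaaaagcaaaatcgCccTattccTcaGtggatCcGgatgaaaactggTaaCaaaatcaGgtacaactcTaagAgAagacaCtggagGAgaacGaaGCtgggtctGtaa
Rpl39l: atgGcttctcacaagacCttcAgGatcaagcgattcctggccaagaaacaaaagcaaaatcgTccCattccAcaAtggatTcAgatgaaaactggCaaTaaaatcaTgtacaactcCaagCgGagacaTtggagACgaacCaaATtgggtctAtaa
No run of 50 bases in Rpl39l occurred in another gene, so the split of reads between the pair does not rest on shared sequence of that length. The other pairs were less alike over their coding sequence: 84.8% of 645 bases for Rpl10 and Rpl10l, 77.6% of 255 bases for Rps27 and Rps27l, and 74.4% of 1209 bases for Rpl3 and Rpl3l.

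The start sites of 6 members illustrate the pyrimidine run common in this family. They were picked after the values were seen, 3 with a larger change at EpiLC D2 in the TET lines (Rpl35, Rps18, Rps10) and 3 with a smaller one (Rpl28, Rps6, Rpl7a). Each window holds 20 bases on either side of the annotated start, 5′ to 3′ on the gene's strand, with the pyrimidine run in capitals.
Rpl35, start window, GRCm38.p6 chr2:39005112-39005151, minus strand: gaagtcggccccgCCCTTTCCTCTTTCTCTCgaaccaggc
Rps18, start window, GRCm38.p6 chr17:33955646-33955685, minus strand: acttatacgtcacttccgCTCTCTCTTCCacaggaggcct
Rps10, start window, GRCm38.p6 chr17:27635225-27635264, minus strand: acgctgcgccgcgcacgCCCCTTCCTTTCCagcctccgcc
Rpl28, start window, GRCm38.p6 chr7:4792945-4792984, plus strand: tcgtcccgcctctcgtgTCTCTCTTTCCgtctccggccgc
Rps6, start window, GRCm38.p6 chr4:86857348-86857387, minus strand: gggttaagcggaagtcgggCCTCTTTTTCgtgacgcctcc
Rpl7a, start window, GRCm38.p6 chr2:26910787-26910826, plus strand: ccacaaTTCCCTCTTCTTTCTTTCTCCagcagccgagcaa
The runs span the annotated start, so part of each lies before it, outside the mRNA. Over their full extent they were 18, 11 and 13 bases long in the first 3 genes and 11, 10 and 21 in the others. Run length against the size of the change was not tested, and these hand-picked genes cannot show a relation. RefSeq starts were matched for 57 of the 76 members, at 69 start sites. A run of at least 8 pyrimidines within 25 bases of the start occurred at 32 of the 69 (46.4%), against 19.7% of 32851 start sites of all genes. Over 300 bases around the start, searched on both strands, CCGGAAGT (an ETS-type motif) occurred in 15.9% of member promoters against 3.89% of all, and AAGATGGC (a YY1-type motif) in 10.1% against 2.75%. GGGCGG, the GC box, occurred in 56.5% against 35.7%, and TATAAA in 7.25% against 13.6%. The motifs were searched independently of one another and may overlap, and a match is a run of letters and not a shown binding site.

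At EB D8 every DNMT KO library held more of Rpl10l and Rpl39l than any library of the other lines, and their promoters are shown because DNA methylation acts at CG pairs, here in capitals. Each window runs from 250 bases before to 20 bases after the annotated start, on the gene's strand.
Rpl10l, promoter, GRCm38.p6 chr12:66284382-66284651, minus strand: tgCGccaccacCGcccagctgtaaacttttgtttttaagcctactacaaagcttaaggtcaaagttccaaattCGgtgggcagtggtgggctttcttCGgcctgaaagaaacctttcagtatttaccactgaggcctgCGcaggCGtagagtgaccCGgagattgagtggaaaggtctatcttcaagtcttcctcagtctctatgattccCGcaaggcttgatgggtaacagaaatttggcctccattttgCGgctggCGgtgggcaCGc
Rpl39l, promoter, GRCm38.p6 chr16:10169978-10170247, plus strand: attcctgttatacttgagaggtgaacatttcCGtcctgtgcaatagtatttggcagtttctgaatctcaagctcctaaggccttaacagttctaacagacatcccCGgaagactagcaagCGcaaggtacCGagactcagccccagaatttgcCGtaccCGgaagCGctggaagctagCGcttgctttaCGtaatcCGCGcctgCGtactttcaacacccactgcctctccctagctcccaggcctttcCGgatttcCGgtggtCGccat
Counted over 300 bases, the Rpl10l promoter held 13 CG pairs and that of Rpl39l held 17. The median was 21 over member promoters and 7 over all promoters, and the Rpl39 and Rpl10 promoters held 17 each. The 2 annotated starts of Rpl3l held 2 and 3. Methylation itself was not measured in these files.

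At the level of RPKM, Rps15 of the small subunit was highest with a mean of 1296 over the 79 libraries. Rpl4 with 1207, Rpl36 with 1193 and Rpl8 with 1119 were also among the highest. The lowest mean levels were those of Rpl3l with 0.660, Rpl29 with 33.3, Rpl35a with 36.6, Rpl34 with 47.2 and Rpl39l with 52.2. This order depends on the length used, as merged exons can far exceed the principal mRNA (3526 against 519 bases for Rpl35a). Per length of the principal mRNA, Rpl35a ranked 66 and Rpl34 69, Rps18 ranked 2, Rps15 4 and Rpl36 16. The steadiest members over the 28 group means were Rps4x (SD 0.18 on the log2 scale), Rpl4 (0.20), Rpl28 (0.20), Rpl6 (0.20) and Rpl10 (0.22). The most variable were Rpl39l (2.70), Rpl10l (2.41), Rpl29 (1.73), Rps27l (0.79) and Rpl3l (0.74), so 4 of the 5 were paralogues. Summed RPKM of the 46 large subunit genes exceeded that of the 30 small subunit genes in every library. The ratio was 1.22 to 1.39 in TET WT and 1.15 to 1.27 in TET KO. It was 1.25 to 1.36 in DNMT WT and 1.24 to 1.35 in DNMT KO. Every ratio lay below that of the gene numbers, 46 to 30, so the mean RPKM per gene, by merged exon length, was lower for the large subunit.

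The 76 genes took up a much larger part of the mRNA of EpiLC in both TET lines. Their share of reads in TET WT was 5.35% ± 0.00525 (SD, n = 3) at ESC D0, 6.46% ± 0.0626 (n = 3) at EpiLC D1 and 9.91% ± 0.937 (n = 3) at EpiLC D2. In TET KO it was 5.80% ± 0.116, 8.77% ± 0.289 and 12.6% ± 1.02 (n = 3 each). The libraries at EpiLC D2 ranged from 8.90% to 10.7% in TET WT and from 11.4% to 13.2% in TET KO, and no library of either group overlapped with those at ESC D0. The DNMT lines showed no such step: the share in DNMT WT was 4.72% ± 0.201 (n = 2) at ESC D0 and 4.76% ± 0.202 (n = 3) at EpiLC D2, and in DNMT KO 4.92% ± 0.149 and 4.99% ± 0.172 (n = 3 each). Outside the EpiLC groups of the TET lines the share lay between 3.39% and 7.58%, or up to 6.12% without DNMT KO EB D2 replicate 2.

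**Figure D1:**
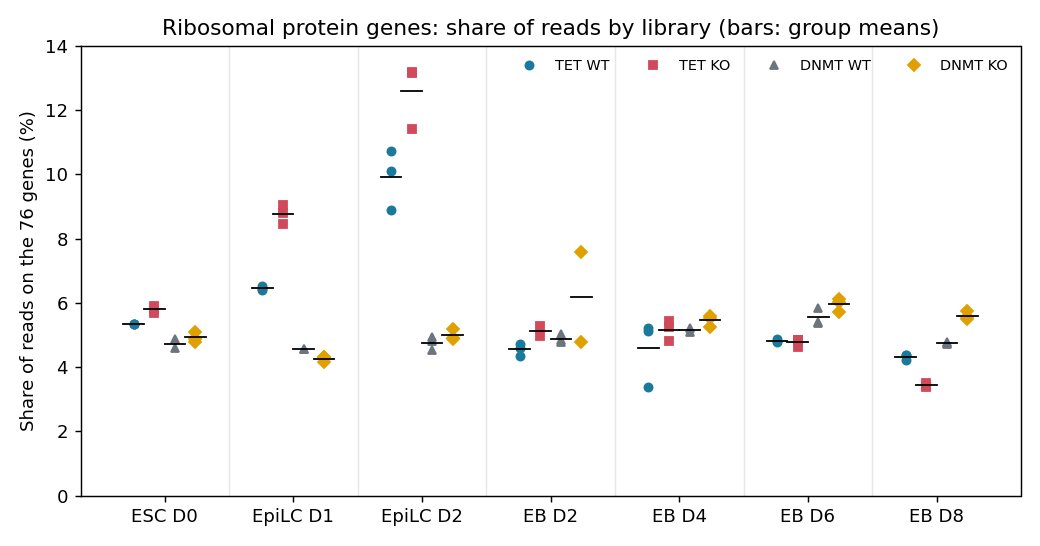
Share of each library's reads on the 76 ribosomal protein genes (y axis, percent) at the 7 conditions (x axis) in the 4 lines; points are libraries and bars are group means. TET WT and TET KO reach 8.90% to 13.2% at EpiLC D2, while the DNMT lines stay near 5%.

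Gene by gene, 68 of the 76 members rose and 1 fell from ESC D0 to EpiLC D2 in TET WT (of all genes tested, 31.7% rose and 36.9% fell). Of these, 31 were called higher, against 11.9% of all genes, and none was called lower, against 15.8%. The median log2 change of the members was 0.91 (all genes 0.00), with a range from -0.23 to 2.38. In TET KO 63 rose and 5 fell (29.2% and 42.3% of all genes), 38 were called higher (11.8%) and none lower (16.7%), and the median was 0.99 (all genes -0.10). In DNMT WT 11 rose and 4 fell, which is 15 members where 50.4% of all genes passed, and none was called (16.6% of all genes). DNMT KO was alike in its counts, with 14 higher and 5 lower (51.6% of all genes passed) and none called (15.2%).

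The size of this step depended on the scaling. With quantile normalization, which forces every library to the same distribution, 48 members rose and 14 fell in TET WT (77.4% of passing members higher, against 98.6%), and 5 were called, all higher. In TET KO the split was 47 to 19 (71.2% against 92.6%), with 10 called higher and 2 called lower. In the same alternative the DNMT WT split turned from 73.3% to 26.7% higher (8 rose and 22 fell), and in DNMT KO it was 15 to 16 (48.4%). Of the members that passed both ways in TET WT, 49 had the same sign and 7 the opposite one.

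Both subunits took part. In TET WT 42 of 46 large subunit genes rose with 16 called and a median of 0.75. Of 30 small subunit genes 26 rose with 15 called and a median of 0.96. Of all genes 31.7% rose and 11.9% were called higher. In TET KO 38 large subunit genes rose (20 called, median 0.84) and 25 small subunit genes rose (18 called). There 29.2% of all genes rose and 11.8% were called higher.

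Rpl41, which encodes the shortest protein of the large subunit, had the next largest change after the paralogue Rpl39l. Its RPKM in TET WT was 597, 562 and 595 at ESC D0 and 2301, 2127 and 1639 at EpiLC D2, and in TET KO 666, 629 and 613 against 3500, 2888 and 3490. In DNMT WT it was 441 and 443 against 568, 523 and 534. All EpiLC D2 libraries of the TET lines were far above the other libraries given here for this gene, while the DNMT WT libraries differed by little. The log2 change was 2.37 in TET KO (SE 0.10, adjusted p = 6.62e-14) and 0.29 in DNMT WT (adjusted p = 0.0362), and with quantile normalization Rpl41 still rose by 0.98 in TET WT.

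Rpl9, a protein of the large subunit, had 268, 273 and 261 RPKM in TET WT at ESC D0 and 999, 815 and 743 at EpiLC D2. In TET KO it had 331, 324 and 320 against 1611, 1330 and 1714, and in DNMT WT 197 and 201 against 153, 188 and 196. The groups did not overlap in either TET line, and the EpiLC D2 libraries of DNMT WT all lay below their ESC D0 libraries without passing the test. The log2 change of Rpl9 was 1.66 in TET WT (SE 0.11, adjusted p = 5.66e-11) and -0.16 in DNMT WT (adjusted p = 0.301).

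Rps18, of the head of the small subunit, had 257, 264 and 268 RPKM in TET WT at ESC D0 and 851, 708 and 637 at EpiLC D2. TET KO libraries had 461, 455 and 457 against 1735, 1440 and 1766. The EpiLC D2 values of both lines lay well above their starting values, by a log2 change of 1.47 in TET WT (adjusted p = 5.69e-11) and 1.84 in TET KO (adjusted p = 1.90e-12). In DNMT WT the values were 335 and 358 at ESC D0 and 271, 322 and 338 at EpiLC D2, which overlapped. Rpl13a, which is also part of a complex that silences inflammatory mRNAs, rose by 1.53 in TET WT and 2.07 in TET KO and had -0.17 in DNMT WT, where it did not pass.

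A few members did not join the rise. Rpl4, among the most abundant, had 1316, 1296 and 1318 RPKM in TET WT at ESC D0 and 1073, 1132 and 1146 at EpiLC D2. In TET KO it had 1423, 1401 and 1402 against 974, 981 and 754, so all EpiLC D2 libraries of both TET lines were below all ESC D0 libraries. Rpl4 fell by 0.23 in TET WT (adjusted p = 0.00577) and by 0.65 in TET KO (adjusted p = 4.89e-08), and by 0.83 and 1.54 with quantile normalization. Rps4x, the X-linked small subunit gene, had a log2 change of 0.11 in TET WT that did not pass and fell by 0.38 in TET KO. Rpl28 had 0.12 and -0.16 in the TET lines, neither of which passed, and rose by 0.32 in DNMT WT and 0.30 in DNMT KO.

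**Figure D2:**
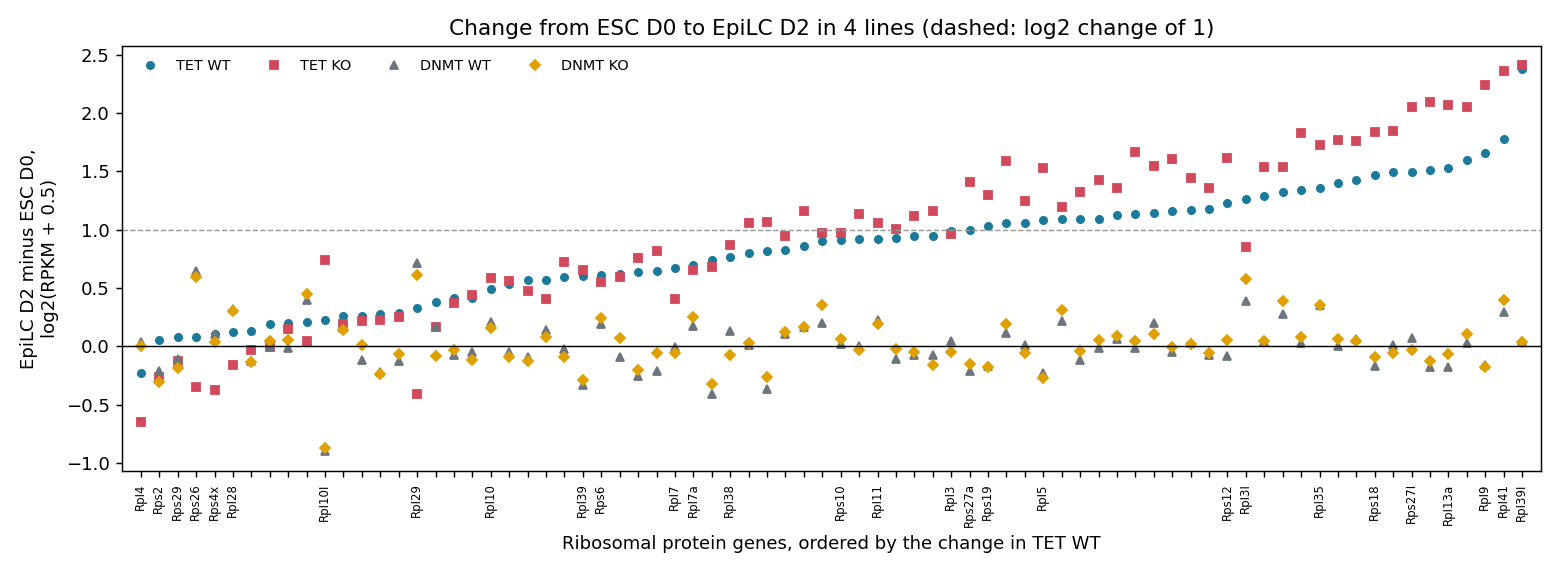
Log2 change from ESC D0 to EpiLC D2 (y axis, log2(RPKM + 0.5)) of each of the 76 genes, ordered on the x axis by the change in TET WT (some are labelled), in the 4 lines; the dashed line marks a log2 change of 1. The TET lines run from below 0 (Rpl4) to above 2 (Rpl39l), and the DNMT lines stay near 0 for most genes.

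The order of the members was alike within a pair of lines. Across the 76 genes the change in TET WT had a Pearson r of 0.96 (Spearman rho 0.97) with that in TET KO, groups that share no library. The change in DNMT WT had r = 0.94 (rho 0.87) with that in DNMT KO, and the changes in TET WT and DNMT WT had r = 0.02 (rho 0.05). These are descriptions over genes that share libraries and are not independent. The change had little relation to mRNA length among members, with rho of -0.14 in TET WT and -0.17 in TET KO.

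Other measures also differed at EpiLC D2. Among other genes, mRNAs of 500 to 1000 bases had a median log2 change of 0.43 in TET WT and 0.50 in TET KO, and those over 4000 bases had -0.41 and -0.48. Both medians were 0.00 in DNMT WT. The shortest other mRNAs, of up to 500 bases, had medians of 0.01 in TET WT and 0.26 in TET KO. The 10 members of that length had 0.83 and 0.92. The 38 members of 500 to 1000 bases had medians of 0.97 and 1.20 in the TET lines. Reads from the mitochondrial genome went from 0.355% to 0.387% at ESC D0 to 0.132% to 0.155% at EpiLC D2 in TET WT. They went the other way in TET KO, from 0.262% to 0.296% to 0.336% to 0.549%, and in DNMT WT they went from 0.675% to 0.819% to 0.434% to 0.681%. EpiLC markers, of which Dnmt3b is deleted in DNMT KO, summed to 36.0 to 49.7 RPKM in TET KO, below the TET WT and DNMT WT sums given above. The naive markers still summed to 257 to 342 RPKM in TET WT against 82.8 to 96.2 in DNMT WT. In TET KO, with the larger share of ribosomal protein reads, they summed to 125 to 149, which overlapped the 130 to 144 of DNMT KO. The part of these differences in the result was not tested.

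The wild-type lines differed from each other for these genes more at EpiLC D2 than at either end of the course in the number called. At ESC D0, 48 members were higher and 15 lower in TET WT than in DNMT WT (49.8% of all genes passed), with 4 called (8.24%). Those were Rpl39 (log2 difference 1.15), Rpl10l (-1.05), Rpl39l (-1.41) and Rps2 (-1.02). At EpiLC D2, 66 were higher and 2 lower (60.9% of all genes passed), with 43 called higher and Rpl29 called lower (22.8% of all genes called) and a median difference of 1.07. At EB D8, 11 were higher and 42 lower (30.2%), with Rpl34 (-1.34) and Rpl35a (-1.04) called lower (2.44%), and 13 passed with 1 fit over all groups. Between TET KO and TET WT, the change to EpiLC D2 was larger in TET KO for 16 members and smaller for 4 by the test of the difference (29.8% of all genes passed), with none called (6.45%). Between the DNMT lines no member passed that test by limma (4.83% of all genes, with 1.59% called), and 0 had an unadjusted p under 0.05. With quantile normalization 1 passed, and with limma-voom on recovered reads 0.

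The paralogues Rpl10l and Rpl39l fell from ESC D0 to EB D8 in all 4 lines, to 2.54 RPKM or less in the wild types and to between 25.2 and 39.8 in DNMT KO. Rpl10l is a single-exon gene at chr12:66283379-66284401 (ENSMUSG00000060499), Rpl39l lies at chr16:10170226-10174911 (ENSMUSG00000039209), and both replace X-linked partners in male germ cells. Rpl10l in DNMT WT had 209 and 213 RPKM at ESC D0, 67.8, 66.5 and 64.9 at EB D2, 13.9 and 12.4 at EB D4, then 1.66, 2.27 and 2.09 at EB D6, and finally 0.461, 0.774 and 0.738 at EB D8. In DNMT KO it had 213, 209 and 192 at ESC D0, 99.1 and 70.5 at EB D2, 39.9, 42.9 and 43.9 at EB D4, then 44.0, 46.0 and 43.6 at EB D6, and finally 34.8, 33.2 and 39.8 at EB D8. The libraries of the DNMT lines overlapped at ESC D0, and from EB D2 on every DNMT KO library was above every DNMT WT library, while the wild type kept falling. At EB D2 the knockout library of 99.1 is the one that stands apart in its share of reads, and the other, at 70.5, was just above the highest wild-type library.

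Rpl39l followed the same course. DNMT WT had 125 and 114 RPKM at ESC D0, 30.6, 31.4 and 32.4 at EB D2, 2.82 and 2.39 at EB D4 and 0.102, 0.260 and 0.303 at EB D8. DNMT KO had 101, 102 and 98.2 at ESC D0, 58.1 and 33.1 at EB D2, 27.8, 28.5 and 27.7 at EB D4 and 25.2, 25.8 and 27.4 at EB D8. The knockout was a little lower than its parent at the start and stayed between 25.2 and 28.5 RPKM from EB D4 on. The parent at EB D8 had no read in 1 library and 3 reads in each of the others, so fitted differences there depend on the pseudocount.

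By the test, Rpl10l was higher in DNMT KO by a log2 difference of 1.65 on day 4 of the embryoid bodies (adjusted p = 2.09e-06), 4.18 on day 6 (1.73e-10) and 4.98 on day 8 (SE 0.19, adjusted p = 1.99e-10). Rpl39l was higher by 3.20 (6.86e-09), 5.28 (2.48e-09) and 5.22 (SE 0.22, adjusted p = 4.88e-10) on those days. At EB D4 these 2 genes were the called members (5.82% of all genes called), and on days 6 and 8 Rpl3l joined them (17.9% and 18.9% of all genes called). In the stem cells limma called no member between the DNMT lines (1.03% of all genes), nor at EpiLC D1 (0.95%), EpiLC D2 (1.59%) or EB D2 (1.14%). The fall to EB D8 was smaller in DNMT KO by a difference of response of 5.03 for Rpl10l (SE 0.23, adjusted p = 3.29e-13) and 5.47 for Rpl39l (SE 0.26, adjusted p = 7.86e-13).

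The TET lines differed at both ends of the course, in opposite directions. Rpl39l in TET WT had 47.2, 45.8 and 41.2 RPKM at ESC D0, 279, 257 and 181 at EpiLC D2 and 0.294, 0.0921 and 0.0979 at EB D8. TET KO had 10.4, 9.80 and 9.51 at ESC D0, 59.6, 49.3 and 56.0 at EpiLC D2 and 2.12, 2.27 and 4.74 at EB D8. TET KO lay below TET WT as stem cells and EpiLC and above it at EB D8, without overlap. The TET WT values at EB D8 stand for 3, 1 and 1 reads. The log2 difference of Rpl39l was -2.12 at ESC D0 (SE 0.06, adjusted p = 2.63e-09), -2.09 at EpiLC D2 (adjusted p = 5.68e-07) and 2.36 at EB D8 (adjusted p = 1.86e-06). At EB D4 it was -1.01 (adjusted p = 2.54e-04), which became -0.77 without TET WT EB D4 replicate 3, -0.94 without TET KO EB D4 replicate 1 and -1.0, just short of the limit for a call, without TET KO EB D4 replicate 3.

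Rpl39l also rose from ESC D0 to EpiLC D2 by 2.38 in TET WT and 2.41 in TET KO, the largest change among the members, and did not pass in DNMT WT (0.05) or DNMT KO (0.04). Its starting level in DNMT WT was above that in TET WT. Rpl10l went another way on this path: it fell by 0.90 in DNMT WT (adjusted p = 4.11e-06) and 0.87 in DNMT KO (adjusted p = 1.34e-06), rose by 0.74 in TET KO, and had 0.23 in TET WT, which did not pass and was -0.10 with quantile normalization.

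Rpl10l in TET WT had 98.3, 103 and 103 RPKM at ESC D0 and 1.35, 2.54 and 1.19 at EB D8, and in TET KO 29.7, 34.4 and 32.4 against 4.18, 5.61 and 5.11. It was lower in TET KO at ESC D0 by a log2 difference of -1.64 (adjusted p = 1.0e-08) and higher at EB D8 by 1.36 (adjusted p = 5.94e-05). At EpiLC D2 the difference was -1.13 (adjusted p = 5.48e-05), or -0.81 with quantile normalization and -0.98 without TET WT EpiLC D2 replicate 2. The falls to EB D8 were smaller in TET KO by 3.00 for Rpl10l (SE 0.22, adjusted p = 5.58e-10) and 4.48 for Rpl39l (SE 0.25, adjusted p = 1.18e-11).

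**Figure D3:**
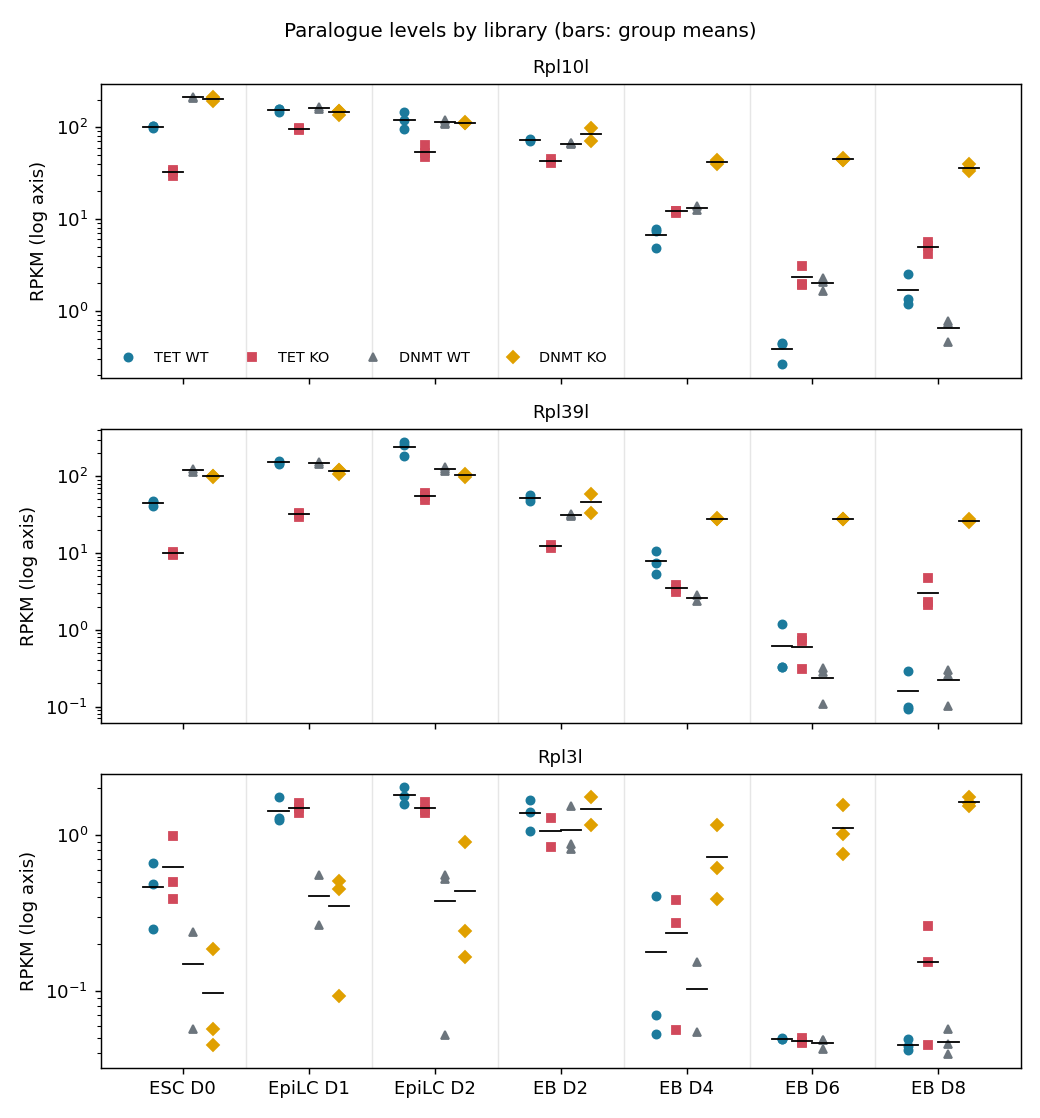
RPKM (y axis, log scale) of ribosomal protein paralogues, 1 panel a gene, by condition (x axis) in the 4 lines; points are libraries and bars are group means. Rpl10l and Rpl39l lie at 2.54 RPKM or less in both wild types at EB D8 and between 25.2 and 39.8 in DNMT KO; the lowest Rpl3l points stand for no read.

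Between the DNMT lines at EB D8 the general partners Rpl39 and Rpl10 differed far less. Over the 28 group means of all lines the SD on the log2 scale was 0.72 for Rpl39 and 0.22 for Rpl10. Rpl39 in DNMT WT had 77.7 and 80.3 RPKM at ESC D0 and 92.1, 85.9 and 99.0 at EB D8, and DNMT KO had 91.2, 88.2 and 90.6 at EB D8. The DNMT lines overlapped there, with a log2 difference of -0.03 that did not pass (adjusted p = 0.732). Rpl10 was higher in DNMT KO at EB D8 by 0.27, with 301 ± 3.07 against 249 ± 1.91 RPKM (SD, n = 3 each).

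Rpl3l, at chr17:24727820-24736143 (ENSMUSG00000002500), was near the limit of detection in most groups. In DNMT KO at EB D8 it had 1.54, 1.75 and 1.59 RPKM, while the DNMT WT libraries were at 0.0574, 0.0394 and 0.0459, which stand for 1 read in the first library and none in the others. All knockout libraries lay above them, and the fitted log2 difference of 1.96 (SE 0.12, adjusted p = 1.28e-08) depends on the pseudocount and is not a bound on the fold. At EB D6 Rpl3l had a mean of 1.11 RPKM in DNMT KO against 0.0466 in DNMT WT. It was also detected in TET WT at EpiLC D2, with 2.03, 1.58 and 1.76 RPKM against 0.485, 0.665 and 0.248 at ESC D0, a rise of 1.26 (adjusted p = 2.82e-04).

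Rps27l, a p53-induced paralogue of Rps27, rose to EpiLC D2 in the TET lines and fell to EB D8 in all 4. TET WT had 243, 241 and 245 RPKM at ESC D0, 770, 749 and 565 at EpiLC D2 and 116, 107 and 97.2 at EB D8. DNMT WT had 203 and 215, then 194, 217 and 249, then 125, 104 and 108. The EpiLC libraries of DNMT WT overlapped their start, while the EB D8 libraries of both lines lay below all earlier ones given here. Rps27l fell to EB D8 by 1.19 in TET WT, 1.37 in TET KO, 0.89 in DNMT WT and 0.66 in DNMT KO.

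Markers of other cell types were read beside the paralogues. At EB D8 the germline list (Ddx4, Dazl, Mael and Sycp3) summed to 36.8 to 37.7 RPKM in DNMT KO. In DNMT WT the sum was 1.01 to 1.79 RPKM and Mael had no read. It summed to 9.86 to 12.6 RPKM in TET KO against 2.73 to 4.19 in TET WT at EB D8, the order Rpl10l and Rpl39l also had. At ESC D0 it summed to 27.8 to 33.7 in TET KO against 10.3 to 11.5 in TET WT, the opposite of the order of the paralogues there. The same held at EpiLC D2, with 188 to 209 in TET KO against 38.5 to 49.9 in TET WT. In the DNMT lines at ESC D0 it summed to 124 to 130 in the knockout against 49.96 to 51.06, while Rpl10l overlapped and Rpl39l lay lower in the knockout. Naive markers at EB D8 summed to 370 to 386 RPKM in DNMT KO against 29.8 to 33.6 in DNMT WT, and general pluripotency markers to 662 to 689 against 142 to 146. Cardiac markers, read beside Rpl3l, were lower in DNMT KO at EB D8, at 10.2 to 13.5 RPKM against 124 to 189. The part of these cell types in the paralogue levels was not tested.

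Rpl29 and Rps2 separated the TET lines, without overlap of libraries at any condition. Rpl29 encodes a small basic protein of the large subunit and lies at chr9:106429454-106431568 (ENSMUSG00000048758). Its mean RPKM in TET KO was 124 ± 6.19 at ESC D0, 112 ± 2.67 at EpiLC D1, 93.2 ± 6.19 at EpiLC D2, 115 ± 3.01 (n = 2) at EB D2, 116 ± 7.92 at EB D4, then 109 ± 6.47 on day 6 and 92.3 ± 3.28 on day 8 (SD, n = 3 otherwise). In TET WT the means at the same conditions were 4.89 ± 0.975, 6.81 ± 0.928, 6.22 ± 0.416, 5.22 ± 0.683, 5.26 ± 1.48, 4.11 ± 1.24 and 4.34 ± 0.903 (n = 3 each). Every TET KO library lay far above every library of the other 3 lines, and Rpl29 was the only member of which this held.

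The DNMT lines had Rpl29 levels of their own that followed the course. DNMT WT had 8.30 ± 0.0637 RPKM (n = 2) at ESC D0, 11.6 ± 0.667 (n = 2) at EpiLC D1, 14 ± 1.22 at EpiLC D2, 13.6 ± 1.55 at EB D2, 10.9 ± 0.727 (n = 2) at EB D4, then 6.27 ± 1.20 on day 6 and 4.08 ± 0.991 on day 8. DNMT KO had 7.02 ± 0.698, 9.47 ± 1.29, 11 ± 1.39, 11.2 ± 0.831 (n = 2), 9.39 ± 0.430, 6.78 ± 1.53 and 6.43 ± 0.437 (n = 3 otherwise). Levels were highest around EpiLC D2 and EB D2 in both, and neighbouring conditions there lay within their spread. The log2 difference between TET KO and TET WT was 4.55 at ESC D0 (adjusted p = 2.63e-09) and between 3.80 and 4.60 at the other conditions.

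Rpl29 values rest on 31 to 193 reads a library outside TET KO and on 814 to 1719 within it. Of its 50-base runs 35.1% occur also in other genes, 82 in all, so reads can be shared with copies of Rpl29. The 20 tested genes next to Rpl29 on the chromosome, 10 on each side, had a median log2 difference of 0.18 between TET KO and TET WT at ESC D0, with a range from -0.54 to 0.80.

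Rps2, a core protein of the small subunit at chr17:24718116-24721929 (ENSMUSG00000044533), had 353, 334 and 353 RPKM in TET WT at ESC D0 and 811, 798 and 773 in TET KO. DNMT WT had 666 and 742 and DNMT KO 718, 791 and 711, so TET WT was the line that stood apart. Over all conditions Rps2 ranged from 219 to 385 RPKM in TET WT, 556 to 861 in TET KO, 485 to 1045 in DNMT WT and 476 to 1113 in DNMT KO. All TET WT libraries lay below all libraries of the other lines. The log2 difference of Rps2 between the TET lines was 1.19 at ESC D0 (SE 0.05, adjusted p = 4.57e-08), 1.31 at EpiLC D1, 1.16 at EB D2, 1.17 at EB D4 and 0.69 at EB D8 (adjusted p = 2.93e-07). Of its 50-base runs 56.4% occur in 71 other genes.

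Rps18 was called between the TET lines at EpiLC D1 and D2, and its log2 difference at the other conditions was 0.20 to 0.80. It was 894 ± 46.8 RPKM in TET KO against 365 ± 5.64 in TET WT at EpiLC D1 (log2 difference 1.29, adjusted p = 2.91e-07) and 1647 ± 180 against 732 ± 109 at EpiLC D2 (1.17, adjusted p = 1.98e-05; SD, n = 3 each). At EB D8 the libraries were 243, 235 and 225 in TET KO and 205, 201 and 204 in TET WT, a log2 difference of 0.20 (adjusted p = 1.03e-04). The lines did not overlap at either time, and 79.4% of the 50-base runs of Rps18 occur in other genes.

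**Figure D4:**
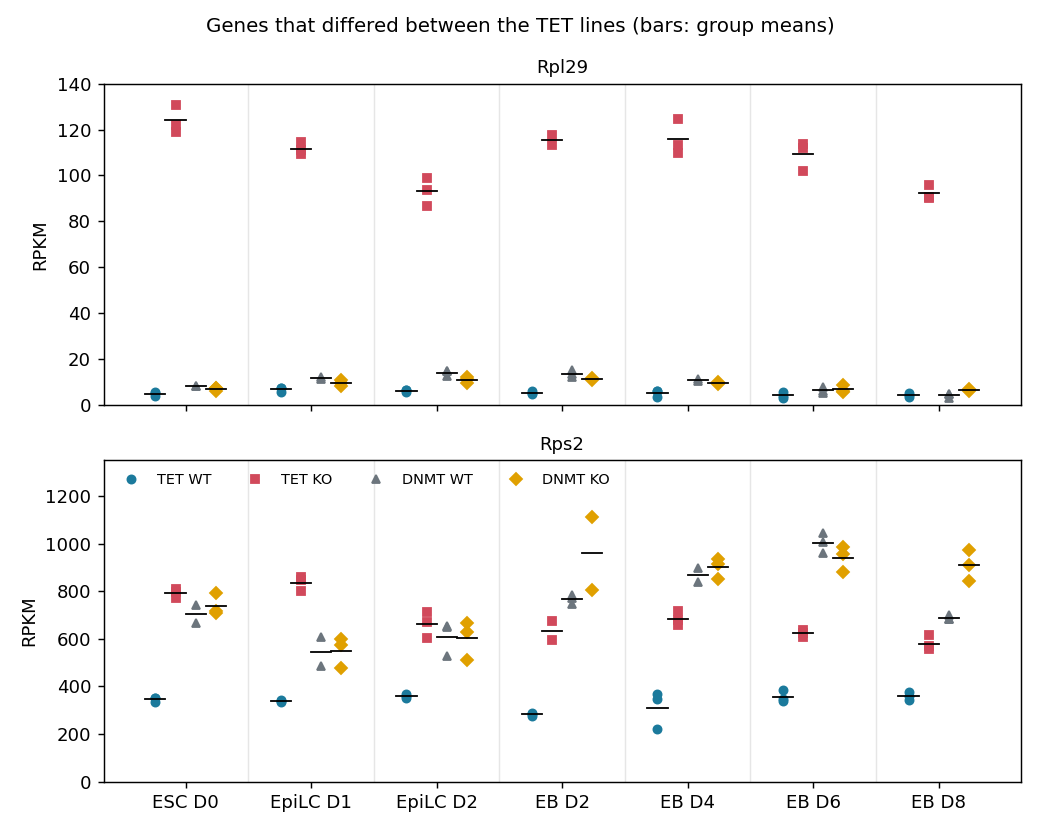
RPKM (y axis, linear) of Rpl29 and Rps2 by condition (x axis) in the 4 lines; points are libraries and bars are group means. Rpl29 lies between 86.7 and 131 in TET KO and between 2.94 and 15.2 elsewhere, and Rps2 is lowest in TET WT at every condition.

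Over the whole family, the TET knockout comparison shifted with the condition. At ESC D0 37 members were higher and 7 lower in TET KO (30.8% and 18.4% of all genes), with Rpl29 and Rps2 called higher and Rpl10l and Rpl39l called lower (6.78% of all genes called). With each library centred on its median over the genes tested, that split became 14 higher and 16 lower. With 1 fit over all groups 14 passed in all. At EpiLC D1 57 were higher and 4 lower (22.3% and 28.5%), with 4 called (6.62%), and at EpiLC D2 36 and 7 (21.1% and 19.8%), with 4 called (7.9%). Quantile normalization gave 28 higher and 7 lower at EpiLC D1 and 22 and 11 at EpiLC D2.

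In embryoid bodies 6 members were higher and 2 lower in TET KO at EB D2 (36.7% of all genes passed, 7.41% called), 9 and 1 at EB D4 (40.2%, 9.47%) and 10 and 13 at EB D6 (45.7%, 5.02%). Called members numbered 3, 3 and 2 at these conditions. Leaving out any 1 of the 5 libraries at EB D2 gave 5 passing in place of 8, and 1 fit over all groups gave 21, 37 and 9 at the 3 conditions. The balance there depended on the scaling: quantile normalization gave 45 higher and 6 lower at EB D4 and 29 and 10 at EB D6. Centring each library on its median over the genes tested gave 6 and 23, and 5 and 33. The EB D4 comparison includes TET WT replicate 2, which stands apart as given above. More members passed there without that library, as given below.

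Between the DNMT lines fewer members passed before the last day. There were 11 higher and 2 lower in DNMT KO as stem cells (18.6% of all genes passed), 1 lower at EpiLC D1 (7.17%), 3 higher at EB D4 (17.6%) and 30 higher and 3 lower at EB D6 (65.5%). No member passed by limma at EpiLC D2 (8.24%) or EB D2 (7.04%), where 3 and 16 had an unadjusted p under 0.05 and limma-voom on recovered reads passed 0. At EB D2, however, 32 passed with 1 fit over all groups, and 74 without DNMT KO replicate 3, which leaves the library that stands apart as the only knockout sample. The fit over all groups passed 0 as stem cells and at EpiLC D1, 5 at EB D4 and 17 at EB D6. With quantile normalization the counts were 15 higher and 3 lower at EB D4 and 25 and 14 at EB D6. The EB D2 median of 0.31 rested on DNMT KO replicate 2: relative to all genes it was -0.03 without that library and 0.64 without the other.

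At EB D8 the knockouts differed from their parents in opposite directions for this family. In TET KO 67 of 76 members were lower and 5 higher than in TET WT (19.8% and 37.7% of all genes), with a median log2 difference of -0.30 where all genes had 0.11. The 3 called were Rpl29, Rpl10l and Rpl39l, all higher (9.98% of all genes called). Against DNMT WT, 60 members were higher in DNMT KO and none lower (33.7% and 34.4% of all genes), with a median of 0.25 where all genes had 0.01. Quantile normalization moved the TET split to 25 lower and 14 higher with a median of -0.03, and 8 members passed both ways with opposite sign. The DNMT split became 43 higher and 7 lower, and 38 passed with 1 fit over all groups. Shares of reads were 3.44% ± 0.0675 in TET KO, 4.32% ± 0.0978 in TET WT, 5.60% ± 0.126 in DNMT KO and 4.75% ± 0.0374 in DNMT WT (SD, n = 3 each), with no overlap between a knockout and its parent.

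The subunits moved alike at EB D8. In TET KO 40 of 46 large subunit genes and 27 of 30 small subunit genes were lower (19.8% of all genes). In DNMT KO 36 and 24 were higher (33.7% of all genes). Rpl13 and Rpl32 of the large subunit, chosen after their values were seen, were lower in TET KO with log2 differences of -0.89 and -0.79.

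Rps26, mutated in some patients with Diamond-Blackfan anaemia, had 659, 642 and 671 RPKM in DNMT KO at EB D8 and 427, 420 and 457 in DNMT WT. The lines did not overlap, and the log2 difference was 0.60 (SE 0.05, adjusted p = 1.47e-07). Rps12, chosen after its values were seen, had 232, 230 and 241 RPKM against 147, 139 and 147 and a log2 difference of 0.70 (adjusted p = 5.52e-08), the largest outside the paralogues. Rpl4 showed the opposite directions in 1 gene: 801, 788 and 816 RPKM in TET KO against 1025, 986 and 1029 in TET WT, and 1412, 1403 and 1442 in DNMT KO against 1109, 1084 and 1099 in DNMT WT. With quantile normalization the difference of Rpl4 in the TET lines was 0.06 and did not pass.

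**Figure D5:**
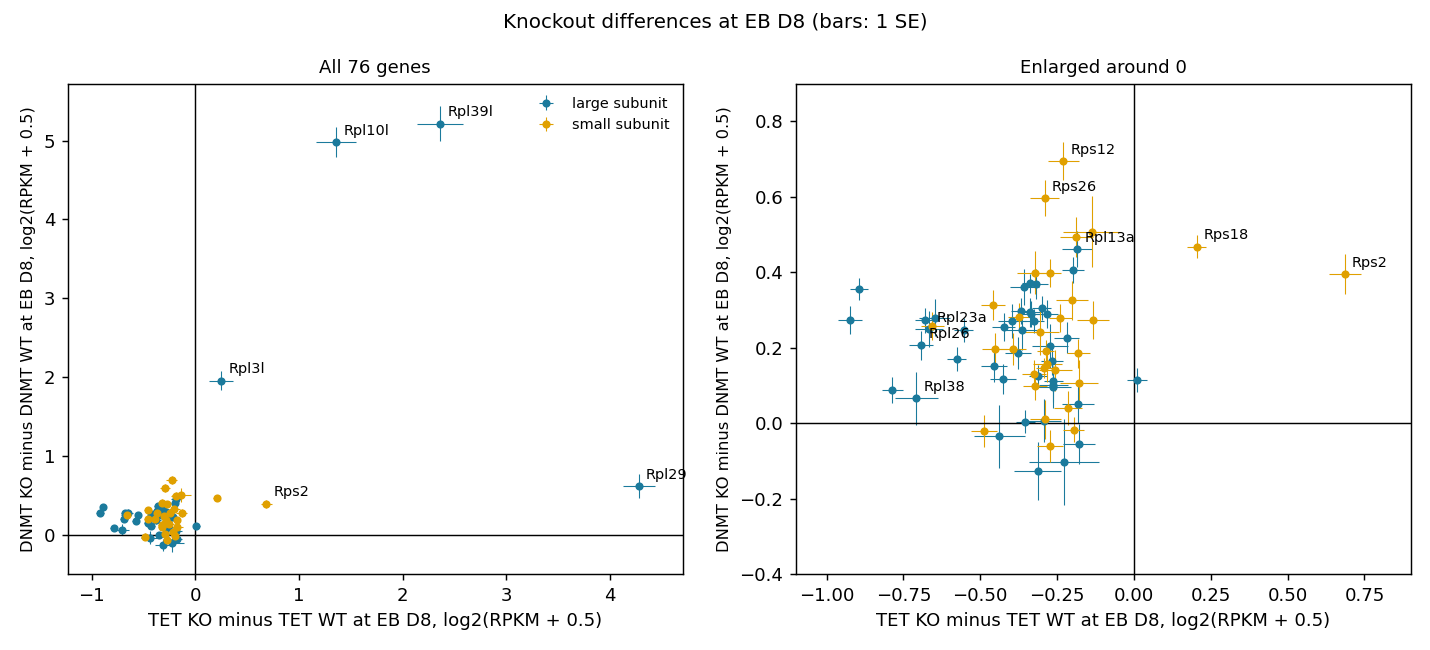
Log2 difference at EB D8 of TET KO from TET WT (x axis) and of DNMT KO from DNMT WT (y axis), both on the log2(RPKM + 0.5) scale, for each of the 76 genes; bars are 1 SE, colours mark the subunit, and the right panel enlarges the centre. Most genes lie left of and above 0, and Rpl39l, Rpl10l and Rpl29 lie far to the right.

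The tissues that formed also differed between these groups at EB D8. Erythroid markers summed to 7984 to 8598 RPKM in TET WT, 23.2 to 34.5 in TET KO, 4406 to 4429 in DNMT WT and 121 to 148 in DNMT KO. Endoderm markers summed to 458 to 502, 32.5 to 36.8, 301 to 315 and 35.1 to 42.7 RPKM in the same order. Both lists were lower in both knockouts, as were the mesenchyme and endothelial lists. Cardiac markers were higher in TET KO, at 182 to 265 RPKM against 42.57 to 53.05 in TET WT, and lower in DNMT KO as given above, so they differed in opposite directions in the 2 knockouts, as the ribosomal protein genes did with the signs exchanged. Their part in the result was not tested.

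Against the stem cells, EB D8 brought a fall of the family in the TET lines. In TET WT 61 members fell and 4 rose (35.7% and 41.9% of all genes), with 5 called lower (12.4%), none called higher (20.3%) and a median of -0.32. In TET KO all 76 fell (33.1% of all genes fell and 42.4% rose), with 14 called lower (9.67%), none higher (18.4%) and a median of -0.79. With quantile normalization 47 fell and 10 rose in TET WT, and 61 fell and 3 rose in TET KO with 6 called. In DNMT WT 30 rose and 25 fell (79% of all genes passed), with Rpl10l and Rpl39l called (37.7%). In DNMT KO 52 rose and 10 fell (72.8%), with 3 called (23.8%): Rpl3l higher, and Rpl10l and Rpl39l lower. Centring each library on its median turned the DNMT WT split to 2 higher and 61 lower and the DNMT KO split to 19 and 33. With 1 fit over all groups 21 and 41 passed in these lines. No direction of the family holds there under every scaling.

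The fall to EB D8 was larger in TET KO than in TET WT for 71 members and smaller for 2 (22.3% and 27.3% of all genes), with 2 called (13.2%), the paralogues given above. With quantile normalization the counts were 37 and 4. Between the DNMT lines 44 members differed by this test, all higher in DNMT KO (28.2% of all genes were higher and 30.5% lower), with 3 called (20.5%), and 33 higher and 7 lower with quantile normalization. The 44 became 10 with 1 fit over all groups and 29 without DNMT WT ESC D0 replicate 2.

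Rps29, a zinc-binding protein of the small subunit, had the next largest fall in TET WT after the paralogues. It had 691, 663 and 687 RPKM at ESC D0 and 298, 273 and 295 at EB D8, and in TET KO 732, 723 and 718 against 255, 253 and 219. DNMT WT had 402 and 434 against 338, 332 and 348, a smaller drop without overlap. Rps29 fell by 1.24 in TET WT (adjusted p = 1.60e-15), 1.58 in TET KO and 0.30 in DNMT WT. Rpl39 fell by 1.14 in TET WT, from 179, 178 and 172 RPKM to 88.8, 81.4 and 70.4, and rose by 0.22 in DNMT WT. Rpl7, of the large subunit, fell in all 4 lines, by 0.55 in TET WT, 0.84 in TET KO, 0.64 in DNMT WT and 0.54 in DNMT KO.

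Several members have known roles beyond the ribosome. Rpl5 and Rpl11 rose to EpiLC D2 in TET WT by 1.08 and 0.92 and in TET KO by 1.53 and 1.06. At EB D8 Rpl5 was lower in TET KO, by a log2 difference of -0.26 from TET WT, which was 0.15 with quantile normalization, and Rpl11 by -0.31, which was -0.04 and did not pass. In DNMT KO they were higher by 0.11 and 0.12.

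Rps6, the substrate of S6 kinase, rose to EpiLC D2 by 0.62 in TET WT and 0.55 in TET KO, changes that were -0.03 and -0.16 with quantile normalization. At EB D8 it was 324 ± 4.98 RPKM in TET KO against 446 ± 19.2 in TET WT, and 574 ± 14.9 in DNMT KO against 462 ± 22.5 in DNMT WT (SD, n = 3 each). The differences of Rps6, -0.46 and 0.31, kept their signs with quantile normalization at -0.22 and 0.15. For Rps6, 84.6% of 50-base runs occur in other genes.

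Rps27a encodes ubiquitin fused to a small subunit protein and rose to EpiLC D2 by 1.0 in TET WT and 1.41 in TET KO. It was lower in TET KO at EB D8, by -0.66, and higher in DNMT KO, by 0.26. Rps19, the gene most often mutated in Diamond-Blackfan anaemia, rose to EpiLC D2 by 1.03 and 1.30 in the TET lines, had -0.18 between the TET lines at EB D8 (adjusted p = 0.0233) and did not pass between the DNMT lines there (0.11). Rps26 went against the family at EpiLC D2: it rose in DNMT WT by 0.65 and DNMT KO by 0.59, had 0.08 in TET WT, which did not pass, and fell by 0.35 in TET KO.

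Rpl38, which is needed for translation of Hox mRNAs in the mouse embryo, had 212, 240 and 200 RPKM in TET KO at EB D8 and 382, 353 and 328 in TET WT. The lines did not overlap, with a log2 difference of -0.71 (SE 0.07, adjusted p = 2.53e-06), or -0.35 with quantile normalization. Rpl38 did not pass between the DNMT lines (0.07, adjusted p = 0.422). It rose to EpiLC D2 by 0.77 in TET WT and 0.87 in TET KO.

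Genes that work with the ribosome moved partly with it. From ESC D0 to EpiLC D2 in TET WT, 31.7% of all genes rose and 36.9% fell. Of 12 ribosomal proteins spelled outside the rule 10 rose and none fell, with a median of 0.76. Of 78 mitochondrial ribosomal proteins 62 rose and 9 fell, with a median of 0.67. Translation factors were 16 higher and 10 lower of 28, RNA polymerase I genes 6 and 6 of 15, and ribosome biogenesis factors, which process ribosomal RNA, 15 and 17 of 35 with a median of 0.01. In TET KO 55 mitochondrial ribosomal proteins rose and 14 fell (29.2% and 42.3% of all genes). Biogenesis factors there were 10 higher and 20 lower with a median of -0.55. In DNMT WT the pattern was another: 25 biogenesis factors rose and none fell (50.4% of all genes passed). Their median was 0.37, where the ribosomal protein members had 0.00. The part of mRNA length in these lists was not tested.

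At EB D8 biogenesis factors were lower than in stem cells in every line. This held for 35 of 35 in TET WT with 21 called and 35 in TET KO with 11 called. It held for 34 in DNMT WT with 21 called and 32 in DNMT KO with 3 called. Of all genes tested, 35.7% fell in TET WT (12.4% called lower) and 33.1% in TET KO (9.67%). In either direction 79% passed in DNMT WT (37.7% called) and 72.8% in DNMT KO (23.8% called). The medians of the list were -1.06, -0.78, -1.06 and -0.44. In DNMT KO 32 of 35 were higher than in DNMT WT and none lower (33.7% and 34.4% of all genes), with a median of 0.72. Dkc1, the pseudouridine synthase of ribosomal RNA, had a mean of 55.9 RPKM against 22.4, a log2 difference of 1.30, and Ddx21 and Rrp9 differed by 1.21 and 1.17. RNA polymerase I genes were higher there in 11 of 15, among them Rrn3 (1.20) and Polr1b (1.04), and Mycn, a transcription factor that drives ribosome production, had 55.3 against 18.1 RPKM (1.58). Between the TET lines at EB D8 biogenesis factors were 12 higher and 13 lower (37.7% and 19.8% of all genes) with a median of 0.06. Mitochondrial ribosomal proteins were 11 and 19 of 78, while 10 of 12 ribosomal proteins outside the rule were lower. Rps3a1 was the furthest of these, with 460 against 1323 RPKM and a log2 difference of -1.52.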

How the data were processed

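RNA was sequenced from 79 libraries with oligo-dT selection and a stranded protocol, per the labels' protocols. The deposited table holds log2 RPKM values that the authors computed for each gene and library. Trimming used Trim Galore 0.6.1 with cutadapt 1.18 and alignment HISAT2 2.1.0 to GRCm38, per the submitters' processing notes. For the counting step and annotation, a name is not given in the sources used here. A gene with no read stands at 0.9 reads, and other values step by whole reads: with GENCODE M21 exon lengths, 99.3% of values under 20 reads lay within 0.1 of a whole number, which gave depth and the share of reads on the members. The table has 35269 entries, of which 39 were left out because their gene ID occurs again with a higher mean.

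Values were turned to RPKM, genes reaching 1 RPKM in 2 or more libraries kept (15267), and log2(RPKM + 0.5) was fitted with limma 3.58.1 (R 4.3.3; trend and robust) over the 4 genotypes at a condition, or at a condition and ESC D0. The 29 comparisons were each adjusted over all genes tested (Benjamini-Hochberg). The fitting code was tested on simulated data. Tables and figures used Python 3.11.15, pandas 2.3.3, numpy 2.4.6, scipy 1.17.1 and matplotlib 3.10.9. Reads of genes with near-identical copies may be split between them, as given beside the genes concerned by the share of 50-base runs found in other genes.

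The members and the gene lists were chosen with earlier results of these data known. Named with values were Rpl29, members called in a knockout comparison, the most and least variable, the highest and lowest, the paralogue pairs, members with further roles, and the 5 with the largest change at EpiLC D2 and at EB D8 in each wild-type line. Alternatives were other pseudocounts, no filter, centred or quantile-normalized libraries, limma-voom on recovered reads, 1 fit over all groups, a replicate block and leaving out each library. One DNMT WT EpiLC D1 column is numbered replicate 3 where the labels name replicates 1 and 2, and was used as a member of its group without a number. Values of some members that the rule names are not reported here.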

Additional observations from a re-analysis of the deposited data

Results flagged for a closer look

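The change from stem cells differed between a knockout and its parent by a test of the difference itself (limma, adjusted over all genes tested) in 3 family counts. For EpiLC D2 in the TET lines 20 members passed, 16 with a larger change in TET KO. For EB D8 in the TET lines 73 passed, 71 of them with a lower value in TET KO, and 41 with quantile normalization. For EB D8 in the DNMT lines 44 passed, all with a higher value in DNMT KO, but 10 with 1 fit over all groups and 29 without DNMT WT ESC D0 replicate 2.

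The paralogues differed most in this test. The fall of Rpl10l to EB D8 was smaller in TET KO by 3.00 and in DNMT KO by 5.03 on the log2 scale. That of Rpl39l was smaller by 4.48 in TET KO and by 5.47 in DNMT KO. For Rpl3l the difference in the DNMT lines was 2.07, a value that depends on the pseudocount because the wild-type libraries at EB D8 held 1 read of it or none.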

How the results depend on the processing

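Of the 58 family values (for each of the 29 comparisons, the members called and the members' median change relative to all genes), none changed beyond its limits with other pseudocounts, with 1 fit over all groups or with a replicate block. A count was taken as moved beyond 1.5 times. A median was taken as moved beyond 0.113, the pooled replicate SD of the members' median log2 level in a library. Main values stand in parentheses. Among the moved values below, the relative median changed sign between the TET lines at EB D6, between the DNMT lines at EB D2 and for EB D8 in DNMT WT. The causes of the changes were not tested.

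Quantile normalization moved 21 of the 58. Members called became 2 (4) for TET KO against TET WT at EpiLC D1, 5 (31) and 12 (38) for EpiLC D2 in TET WT and TET KO, 6 (14) for EB D8 in TET KO, 1 (0) for the difference of response to EpiLC D2 in the TET lines and 19 (44) between the wild-type lines at EpiLC D2. Relative medians between the TET lines became 0.13 (0.43) and 0.085 (0.25) on the 2 EpiLC days, 0.16 (0.04) at EB D4, then 0.062 (-0.05) on day 6 and -0.057 (-0.41) on day 8, and 0.15 (0.31) between the DNMT lines at EB D2. For EpiLC D2 they became 0.38 (0.91) in TET WT and 0.30 (1.09) in TET KO. For EB D8 they became -0.058 (-0.36) in TET WT, -0.27 (-0.87) in TET KO, 0.19 (-0.064) in DNMT WT and 0.27 (0.10) in DNMT KO. The differences of response in the TET lines became 0.034 (0.18) for EpiLC D2 and -0.17 (-0.48) for EB D8, and the wild-type lines differed by 0.54 (1.10) at EpiLC D2.

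Centring libraries on their median moved 4 counts of called members: 5 (3) for TET KO against TET WT at EB D8, and 8 (5), 47 (14) and 4 (2) for EB D8 in TET WT, TET KO and DNMT WT. Without the filter the relative medians became 0.25 (0.04) for the TET lines at EB D4, 0.95 (1.09) for EpiLC D2 in TET KO, and 0.050 (-0.064) and 0.22 (0.10) for EB D8 in DNMT WT and DNMT KO, where the base holds more genes near 0. With limma-voom on recovered reads 4 (2) members were called for EB D8 in DNMT WT and 1 (0) for EpiLC D2 in DNMT KO. With 7 ribosomal proteins spelled outside the rule added, the median share of reads was 5.80% (5.09%).

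Leaving out libraries moved 4 of 376 values. Between the DNMT lines at EB D2, called members ranged from 0 to 4 and the relative median from -0.032 to 0.64 (0.31). Between the wild-type lines at EpiLC D2 the median ranged from 1.03 to 1.23 (1.10). Members passing between the TET lines at EB D4 ranged from 6 to 25 (10), with 25 without TET WT EB D4 replicate 2 and 19 without replicate 1. Those between the TET lines at EB D2 were 5 (8) without any 1 library. Those between the DNMT lines ranged from 6 to 21 (13) as stem cells and from 1 to 3 (1) at EpiLC D1, and 74 (0) passed at EB D2 without DNMT KO replicate 3. For EpiLC D2 in DNMT WT they ranged from 5 to 15 (15), and for the difference of response to EB D8 in the DNMT lines from 29 to 50 (44), the lowest without DNMT WT ESC D0 replicate 2.

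Counts of members passing moved with other settings as well. With 1 fit over all groups they were 14 (44), 21 (8), 37 (10) and 9 (23) between the TET lines as stem cells and at EB D2, D4 and D6. Between the DNMT lines they were 0 (13), 0 (1), 32 (0), 5 (3), 17 (33) and 38 (60) as stem cells, at EpiLC D1 and at EB D2 to D8. They were 41 (62) and 21 (55) for EB D8 in DNMT KO and DNMT WT, 13 (53) between the wild-type lines at EB D8 and 10 (44) for the difference of response in the DNMT lines. Centring gave 5 (8), 29 (10), 38 (23) and 25 (43) for the TET lines at EB D2, EB D4, EB D6 and EpiLC D2, and 11 (3) and 4 (1) for the DNMT lines at EB D4 and EpiLC D1. Quantile normalization gave 13 (8), 51 (10), 39 (23), 39 (72) and 35 (61) for the TET lines at EB D2 to D8 and EpiLC D1, 18 (3) for the DNMT lines at EB D4, 30 (15) and 31 (19) for EpiLC D2 in DNMT WT and DNMT KO, 41 (73) for the difference of response to EB D8 in the TET lines and 1 (0) for that to EpiLC D2 in the DNMT lines. Limma-voom gave 32 (10) and 7 (3) for the TET and DNMT lines at EB D4. Without the filter they were 5 (8), 5 (10) and 15 (23) for the TET lines at EB D2, D4 and D6 and 0 (1) for the DNMT lines at EpiLC D1.

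The labels give replicate numbers without saying what they share, and 1 library whose number differs between the table and the labels was left out of the pairing. In 0 of 9 knockout comparisons with 3 numbered pairs did every pair's correlation exceed 0.1 (range -0.22 to 0.29), and in 1 of 9 was every library closest to that of its own number. The replicate block moved the passing counts to 0 (1) and 1 (0) for the DNMT lines at EpiLC D1 and D2 and to 5 (8) for the TET lines at EB D2. Among single genes, Rpl39l between the TET lines at EB D4 fell short of a called difference with a pseudocount of 1 RPKM (-0.93) and without TET WT replicate 3 (-0.77), TET KO replicate 1 (-0.94) or TET KO replicate 3 (-1.0) of that day, as did Rpl10l between the TET lines at EpiLC D2 without TET WT replicate 2 (-0.98) and Rpl3l between the DNMT lines at EB D6 with that pseudocount (1.0).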

Other observations

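The p53 target list and the regulators of ribosome production changed direction with the comparison. From ESC D0 to EpiLC D2 in TET WT, 6 of 16 p53 targets were higher and 9 lower (31.7% and 36.9% of all genes). Of 10 regulators 2 were higher and 7 lower, with a median log2 change of -0.43. In TET KO 1 regulator was higher and 9 lower (29.2% and 42.3% of all genes), with a median of -0.62. In DNMT WT 5 regulators were higher and 2 lower (50.4% of all genes passed), with a median of 0.37. Between the TET lines at EpiLC D1, 1 p53 target was higher and 10 lower in the knockout (22.3% and 28.5% of all genes). Between the TET lines at EB D8, 5 p53 targets were higher and 4 lower in the knockout (37.7% and 19.8% of all genes). There 4 regulators were higher and 3 lower. Between the DNMT lines on that day 9 p53 targets were higher and 4 lower (33.7% and 34.4% of all genes). At EB D6 13 were higher and 2 lower (65.5% of all genes passed), with a median log2 difference of 0.70. Of the 13, 4 were called (17.9% of all genes called).

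Across the 76 members the change from ESC D0 to EB D8 in TET WT had a Pearson r of 0.95 with that in DNMT WT but a Spearman rho of 0.38, as Rpl10l and Rpl39l lie far from the rest in both. These are descriptions over genes of the same libraries.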
